A study of Macaca mulatta with 6 samples.

Results

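Mitochondrial ribosomal proteins are the nuclear-encoded proteins of the ribosome that works inside mitochondria. They were taken here as every gene whose symbol starts with MRPL or MRPS and that at least 1 probe set names alone. This gave 51 genes, 31 with MRPL and 20 with MRPS symbols, out of 11963 genes on single-gene probe sets. Where several probe sets named a gene, the one with the highest mean of log2(intensity + 1) over the arrays was used, and 64 probe sets named a single member in all. A further probe set naming both the pseudogene MRPS31P5 and THSD1 was not used. Of the 51 genes, 41 had a mean log2 intensity of at least 7.302, which is the median over all non-control probe sets, and were tested among 7164 genes. The other 10 are described apart.

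The study followed expression in the adrenal gland of a primate over 24 h. Each group is a single ovariectomized female rhesus macaque, whose left adrenal gland was hybridised to 1 human Affymetrix array. All 6 animals lived with 12 h of light per day alternating with 12 h of darkness and were fasted for 12 h before collection. The 3 AM and 7 AM animals were 12 years old, the 11 AM animal 10 years and 37 days, the 3 PM animal 8 years and 106 days, the 7 PM animal 7 years and 82 days, and the 11 PM animal 8 years and 70 days. With 1 animal at each clock time, a difference between clock times is also a difference between animals. The older animals are those of the morning arrays, so age and clock time cannot be told apart in this design.

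The mitochondrial ribosome translates the few messages encoded by mitochondrial DNA, all of which specify hydrophobic subunits of the respiratory chain and ATP synthase. It has a small subunit, which decodes the message, and a large subunit, which joins amino acids. Some of its proteins have counterparts in bacterial ribosomes, and others were acquired only in mitochondria. In the adrenal cortex the first and last steps of cortisol synthesis take place in mitochondria and draw electrons from reduced nicotinamide cofactors made there.

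Intensities had been scaled by the authors to a common trimmed mean, between 325.042 and 325.086 on every array, and medians of intensity were between 154 (7 AM) and 173.1 (3 PM). Signal at the 3' end relative to the 5' end ran from 0.7212 to 1.16 for GAPDH and from 0.6095 to 0.8192 for ACTB. This ratio sets different probe sets against each other, so only its differences between arrays can bear on how intact the RNA was. Listed markers of adrenal cortex (10 of 12 measured) summed to intensities between 60371.2 and 94672.1, and those of chromaffin cells of the medulla (12 of 13 measured) to between 15138.3 and 38232.1. Single markers read as low as 23.6 in the cortex list and 7.8 in the chromaffin list, and without a signal over background their presence was not judged. In such bulk tissue, fewer cells of a type and less RNA per cell cannot be told apart. Probes were designed on human sequence, so apart from the ratio of 3' to 5' signal, levels are compared only within a probe set.

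Over the 6 arrays, the highest array was less than 2 times the lowest in 31 of the 41 tested members (75.6%), against 72.4% of all genes tested. It was between 2 and 3 times in 4 members, and at least 3 times in 6. The median range was 0.67 on the log2 scale for members, against 0.76 for all genes tested. A cosine with a period of 24 h was fitted to log2(intensity + 1) of every gene with limma, whose moderated F test asks whether the curve differs from a flat line. The fitted peak was a median of 1.28 times the trough in members and 1.35 times in all genes. At an unadjusted p under 0.05 the cosine fit called 1 of 41 members, MRPS16, which is 2.44% of them, against 5.56% of all genes tested. After Benjamini-Hochberg adjustment over 7164 genes it called 0 members and 0 genes, with a lowest adjusted p of 0.836 among members and 0.219 among all genes (limma). The ordinary F test, without limma's moderation, likewise called 0 after adjustment, with 5 members at an unadjusted p under 0.05 (12.2%), against 5.75% of all genes. These were MRPS16, MRPL57, MRPS35, MRPS30 and MRPL39.

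**Figure D1:**
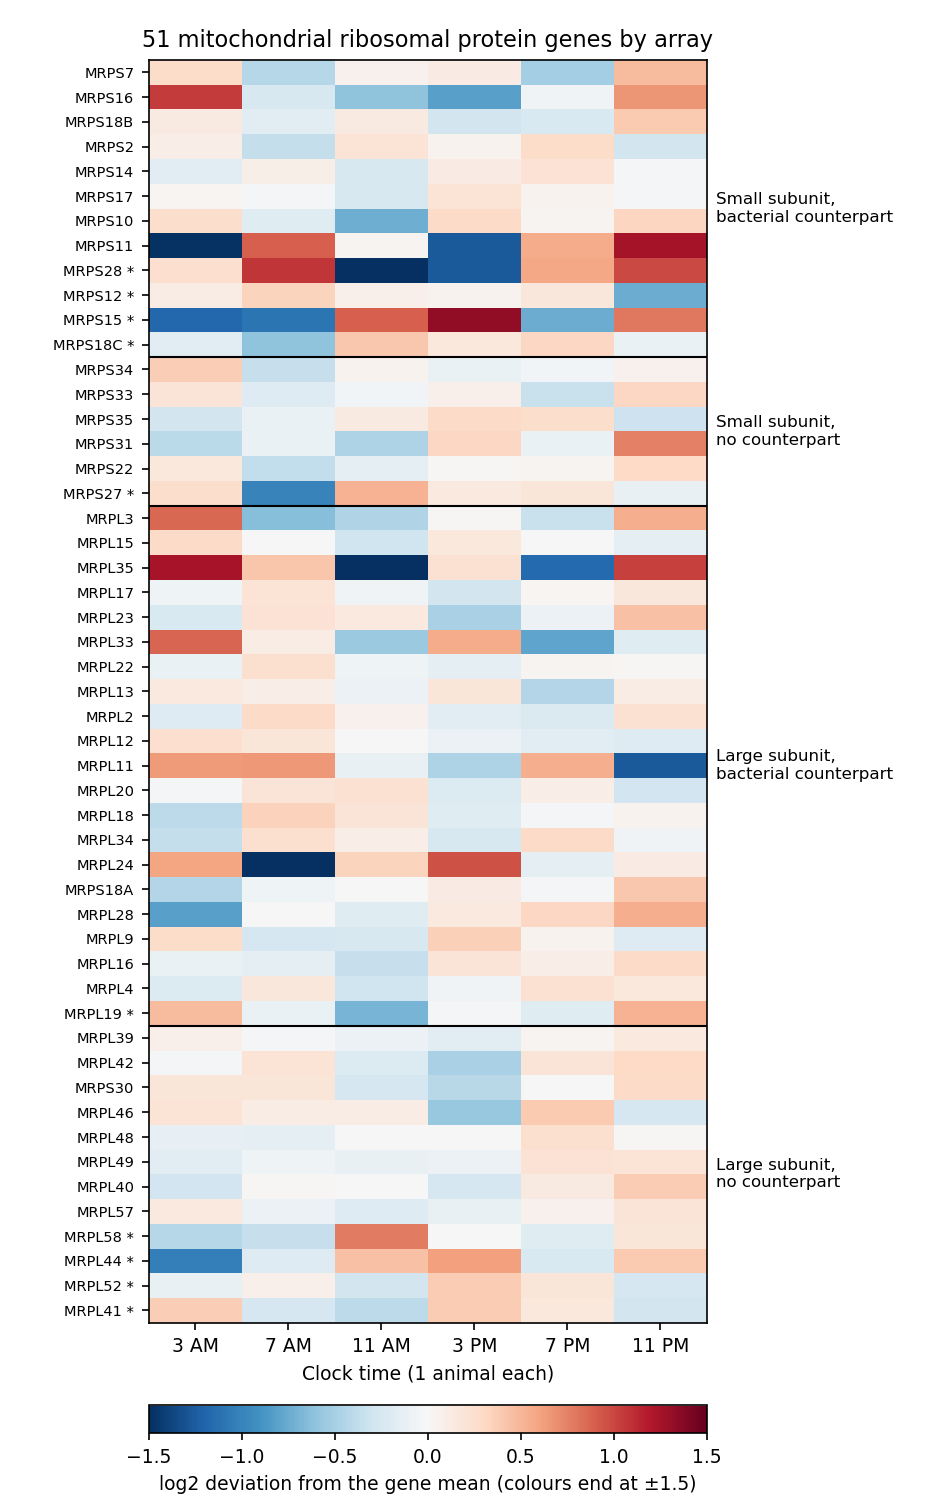
Deviation of each of the 51 genes from its own mean over the 6 arrays, on the log2 scale, with arrays in clock order from left to right and genes grouped by subunit and by whether a bacterial counterpart exists. An asterisk marks the 10 genes below the level filter, and tested genes of a group run down the page by the hour of their fitted peak. Most rows are pale, and among tested genes the strongest colours belong to MRPS16, MRPS11, MRPL35, MRPL24, MRPL11 and MRPL33, the 6 with a range of at least 3-fold.

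MRPS16, the counterpart of bacterial S16, which helps to fold the RNA of the small subunit, had the smallest p of any member. Its intensity was 436.2 at 3 AM, 178.7 at 7 AM, 138.4 at 11 AM, 119.7 at 3 PM, 203.5 at 7 PM and 332.8 at 11 PM. The values descended without a break from 3 AM to 3 PM and climbed again to 11 PM. The widest step, from 436.2 to 178.7, lay between 3 AM and 7 AM. The fitted curve peaked at 1.16 h with a peak 3.48 times the trough, a log2 difference of 1.80 ± 0.30 (SE, 6 arrays). The cosine accounted for a share of the variance, R2, of 0.934. By limma's moderated F test its p was 0.00137 (adjusted p = 0.836), and in an exact permutation test over the 60 circular orders of the arrays, where the smallest possible p is 0.0167, it was 0.05. MRPS16 is represented by a single probe set, so no other probe set of the gene was at hand to compare. Leaving out each array in turn gave a log2 peak-to-trough difference between 1.52 and 1.98, past the unadjusted threshold each time.

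Among the other small-subunit genes with a bacterial counterpart, MRPS10 came next. MRPS10, the counterpart of bacterial S10, had intensities of 424.4, 310.6, 211.6, 430.1, 361.6 and 439.8 from 3 AM to 11 PM. The 11 AM array was the lowest, and 3 of the other arrays lay within a narrow band at the top. Its log2 peak-to-trough difference was 0.78 ± 0.36 (SE, 6 arrays, adjusted p = 0.849 by limma). Without the 3 PM array it was 1.10, and only then past the unadjusted threshold among the settings run. MRPS11, counterpart of bacterial S11 and chosen after its values were seen, had 73.8, 389.9, 214.4, 86.2, 307.3 and 498.5 in the same order. It was low at 3 AM and 3 PM and high at 7 AM and 11 PM, so its 6.75-fold range did not follow a 24 h curve (R2 0.0451). Without the 3 AM array its log2 peak-to-trough difference was 2.65 and past the unadjusted threshold (limma), against 0.63 with all arrays. MRPS7, MRPS18B, MRPS2, MRPS14 and MRPS17 each had a range under 2-fold.

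The small-subunit genes without a bacterial counterpart included the member whose fitted peak fell in the afternoon with the smallest p, MRPS35. Its intensity was 344.9 at 3 AM, 390.5 at 7 AM, 460 at 11 AM, 510.3 at 3 PM, 502.7 at 7 PM and 337.6 at 11 PM. The 3 PM and 7 PM arrays were highest and the 11 PM and 3 AM arrays lowest, which is nearly the reverse of MRPS16. The fitted peak was at 14.7 h and 1.57 times the trough (log2 0.65 ± 0.26, SE, 6 arrays, R2 0.891). By limma it did not pass the unadjusted threshold (adjusted p = 0.847) and by the ordinary F test it did, while the exact permutation p over orders was 0.117. MRPS22, in which inherited mutations in humans impair mitochondrial translation, had 1518.3, 1046.8, 1229.5, 1376.8, 1391.1 and 1668.7 from 3 AM to 11 PM. It was lowest at 7 AM and highest at 11 PM, with a fitted peak at 21.8 h (log2 0.50 ± 0.28, SE, exact permutation p = 0.15). Its probe set is of a design that may share probes with other sequences, as are those of MRPL35, MRPL41 and MRPL44. MRPS31 spanned 2.34-fold, with its highest value of 380.6 at 11 PM, while MRPS33 spanned 1.57-fold and MRPS34 1.66-fold, and these 3 passed in neither comparison (limma).

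**Figure D2:**
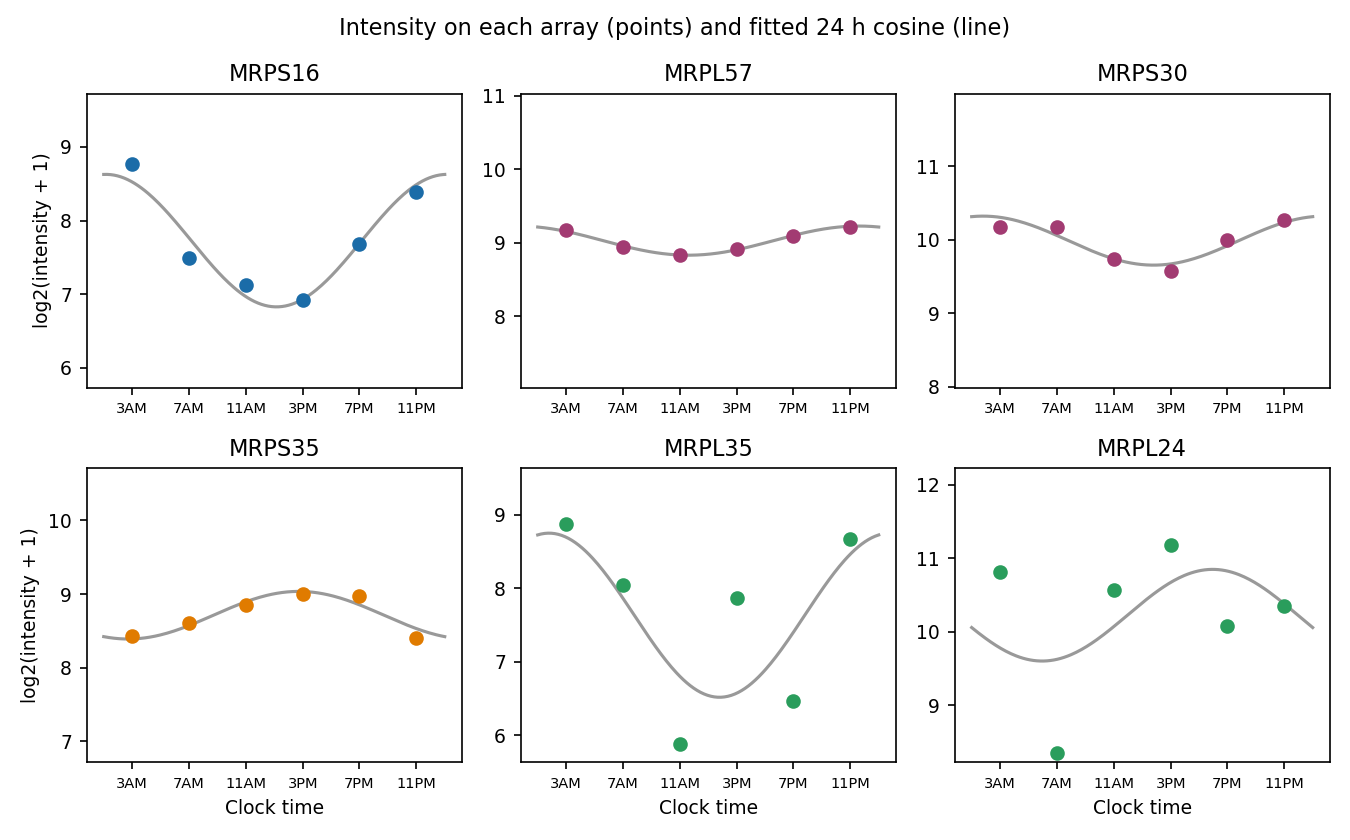
log2(intensity + 1) of 6 genes against clock time, with points for the single array at each time and a line for the fitted 24 h cosine. Every panel spans the same number of log2 units, and colour gives the subunit group. The points of MRPS16, MRPL57, MRPS30 and MRPS35 lie near their curves, while those of MRPL35 and MRPL24 depart from them at single arrays.

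Large-subunit genes with a bacterial counterpart formed the biggest group, 20 tested of 21 measured, and held the widest ranges among tested members. MRPL35, counterpart of bacterial L35, had 466.6 at 3 AM, 264.1 at 7 AM, 58.2 at 11 AM, 232.4 at 3 PM, 87.7 at 7 PM and 405.1 at 11 PM. The 11 PM and 3 AM arrays were high and the 11 AM and 7 PM arrays low, with 3 PM well above both of its neighbours. The fitted peak was at 1.80 h (log2 2.23 ± 0.82, SE, 6 arrays, R2 0.517, adjusted p = 0.836 by limma). Single arrays decided this value: without 3 PM it was 3.90 and without 7 PM it was 2.32, both past the unadjusted threshold, and its lowest value without a single array was 1.55.

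MRPL3, whose bacterial counterpart L3 lies beside the site where peptide bonds form, had 384.9, 134.5, 153.3, 213.9, 166.9 and 308 from 3 AM to 11 PM. The 3 AM and 11 PM arrays lay above the other 4, and its fitted peak fell at 0.0908 h (log2 1.10 ± 0.46, SE, 6 arrays, adjusted p = 0.849 by limma). Without the 7 PM array the difference was 1.38 and passed the unadjusted threshold. MRPL24, counterpart of an early-binding bacterial protein that helps to start large-subunit assembly, had 1803.2, 326.4, 1510.9, 2324.8, 1080.8 and 1302.9. Its 7.12-fold range came from the 7 AM array, and without that array its log2 peak-to-trough difference was 0.59, against 1.25 with all arrays, with the fitted peak more than 6 h away. MRPL28, another protein of this group, was 107.4 at 3 AM and 276.9 at 11 PM, with 190.1, 167.9, 209.4 and 235 between, and had a fitted peak at 18.3 h (exact permutation p = 0.45).

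MRPL16 had 787.8, 766.3, 662.4, 965.5, 899.6 and 1029.6 from 3 AM to 11 PM, lowest at 11 AM and highest at 11 PM, with a fitted peak at 20.5 h (exact permutation p = 0.217). MRPS18A, which despite its symbol sits in the large subunit, had 1275.5, 1662.3, 1720.4, 1879.6, 1718.4 and 2297 in the same order. Its R2 was 0.267 for the cosine and 0.456 for a straight line on age. MRPL12, the counterpart of the bacterial L7/L12 stalk protein that recruits translation factors, was chosen after its values were seen. It had 296.4, 280.9, 248, 233.7, 222.7 and 217.3, a steady descent from 3 AM to 11 PM that does not close around the clock. The straight line on age had an R2 of 0.921 for MRPL12, against 0.761 for the cosine, which has 1 more term. Age gave the higher R2 in 9 of the 41 members, and no such share over all genes was at hand to set beside it. The 8 further genes of this group, MRPL2, MRPL4, MRPL9, MRPL15, MRPL17, MRPL22, MRPL23 and MRPL34, had ranges from 1.30-fold (MRPL22) to 1.91-fold (MRPL23), and with all arrays none of them passed in either comparison (limma).

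MRPL33 and MRPL11 were also chosen after their values were seen, for their wide ranges. MRPL33 had 3446.8, 2031.8, 1278.3, 2775.6, 1089.1 and 1659.2 from 3 AM to 11 PM, with high arrays at 3 AM and 3 PM, 12 h apart. MRPL11, counterpart of the protein at the base of the bacterial stalk, had 285.7, 288.2, 169.2, 132.4, 268.5 and 75.8. It was lowest at 11 PM, where 29 of the 41 members lay above their own means. The R2 of the cosine was 0.18 for MRPL33 and 0.17 for MRPL11. Each passed the unadjusted threshold when 1 array was left out, MRPL33 without 3 PM (log2 1.82) and MRPL11 without 7 PM (log2 2.10), both by limma.

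The 8 tested large-subunit genes without a bacterial counterpart all had ranges under 2-fold. MRPS30, which also sits in the large subunit despite its symbol, had 1154 at 3 AM, 1153.9 at 7 AM, 854.9 at 11 AM, 764.1 at 3 PM, 1019.3 at 7 PM and 1238.5 at 11 PM. The 11 AM and 3 PM arrays lay below the other 4, and the fitted peak was at 1.80 h (log2 0.67 ± 0.26, SE, 6 arrays, R2 0.877). It did not pass the unadjusted threshold by limma (adjusted p = 0.836) and did by the ordinary F test, with an exact permutation p of 0.05. Between the arrays of 7 AM to 3 PM and those of 7 PM to 3 AM it differed by -0.32 ± 0.21 (SE, adjusted p = 0.932 by limma), and by -0.49 without 7 AM, then past the unadjusted threshold. MRPL42 was likewise lowest at 3 PM, with 1777.8, 2078.4, 1560.6, 1285.1, 2048.6 and 2218.7 from 3 AM to 11 PM (exact permutation p = 0.35). MRPL39 and MRPL49 had the smallest ranges of all tested members. MRPL39 had 1163.7, 1088.2, 1040.7, 983.4, 1136.9 and 1217.2, a smooth course with its low point at 3 PM and a log2 peak-to-trough difference of 0.27 ± 0.25 (SE, 6 arrays, R2 0.89). MRPL49 had 1513.9, 1614.9, 1555.7 and 1580 on the first 4 arrays and 1957.1 and 1942 at 7 PM and 11 PM. MRPL48 was also highest at 7 PM, with 1602, against 1231.4 to 1367.6 on the other arrays, and MRPL40 was highest at 11 PM, with 763.7, against 480.8 to 647.9 on the others.

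MRPL57, a short protein found only in mitochondrial ribosomes and chosen after its values were seen, followed the 24 h curve more closely than any other member. Its intensity was 577.3 at 3 AM, 489.1 at 7 AM, 457.1 at 11 AM, 481.6 at 3 PM, 544.2 at 7 PM and 595 at 11 PM. The values moved in 1 direction from 11 PM to 11 AM and in the other from 11 AM to 11 PM. The fitted peak was at 23.6 h and only 1.32 times the trough (log2 0.40 ± 0.25, SE, 6 arrays), with an R2 of 0.99. The exact permutation p over the 60 orders was 0.0167, the smallest it can take, and MRPL57 was the 1 member with an exact p under 0.05. The share of all genes with such a p was not computed. That test ranks the same R2, and MRPL57 was chosen with its values known, so its p adds no separate support. By the ordinary F test it passed the unadjusted threshold, whereas by limma, which shares the spread of all genes, it did not (adjusted p = 0.885). An R2 above 0.8 was reached by 5 of the 41 members (12.2%), against 10.1% of all genes tested, so close curves were about as common among genes at large.

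**Figure D3:**
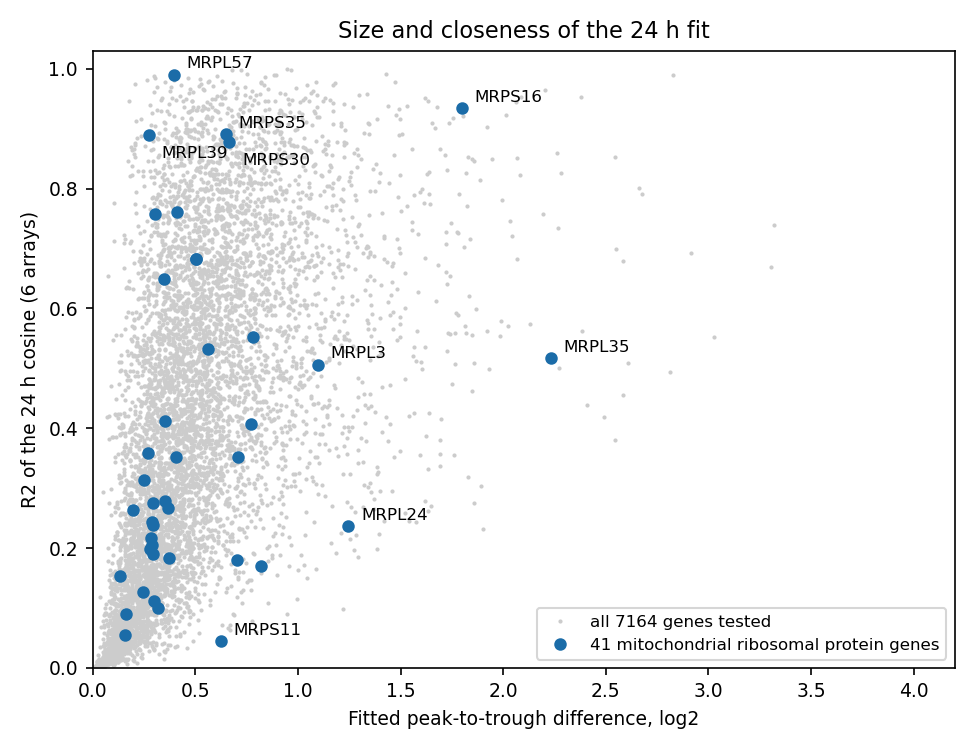
R2 of the 24 h cosine over the 6 arrays against the fitted peak-to-trough difference on the log2 scale, with 1 point per gene. The 41 tested mitochondrial ribosomal protein genes (blue) lie among all 7164 genes tested (grey), with MRPS16 set apart by a difference of 1.80 at an R2 of 0.934 and MRPL57 at an R2 of 0.99 with a difference of 0.40.

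Several probe sets were available for 10 members and let the same RNA be read more than once. The 3 probe sets of MRPL57 had fitted peaks at 23.6 h, 23.7 h and 0.49 h, with log2 peak-to-trough differences of 0.40, 0.30 and 1.36. The curve accounted for little of the second (R2 0.245), whose correlation with the chosen one over the 6 arrays was 0.46. The dimmest of them read 185.8, 131.7, 66.5, 72.8, 179.6 and 133.4 from 3 AM to 11 PM, with both 11 AM and 3 PM low. The other probe set of MRPS30 read 162.9, 99, 153.6, 213, 145.4 and 174.6, highest at 3 PM where the chosen one was lowest, with a fitted peak at 18.2 h. For MRPS18A the other probe set peaked at 15.3 h, against 18.1 h for the chosen one. Over the 13 further probe sets of the 10 members, the correlation with the chosen one ran from -0.73 (MRPS31) to 0.79 (MRPL57). It was below 0 in 4, those of MRPS11, MRPS14, MRPS30 and MRPS31, and above 0.5 in 3. The 1 further probe set above the level filter was that of MRPL57 with its peak at 23.7 h.

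The second comparison set the arrays of 7 AM, 11 AM and 3 PM against those of 7 PM, 11 PM and 3 AM, called day and night here by clock hour, since the labels used here do not say when the lights came on. Of the 41 tested members, 30 were lower by day (73.2%), against 50.9% of all genes tested. The median day minus night difference was -0.11 on the log2 scale in members, against -0.0043 in all genes, and members ran from -1.10 to 0.24. Without the 11 AM array 23 of 41 were lower by day (56.1%, against 50.2% of all genes). Leaving out other single arrays gave from 27 without 11 PM (65.9%, against 52.1%) to 31 without 3 AM (75.6%, against 50.4%). By limma's moderated test at an unadjusted p under 0.05, 1 member was lower by day, MRPS16 (2.44% of members), against 2.44% of all genes, and 0 members were higher, against 2.95% of all genes. After adjustment over all genes limma called 0, with a lowest adjusted p of 0.759 among members. The median standard error of a member's difference was 0.22.

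MRPS16 had intensities of 178.7, 138.4 and 119.7 by day, against 203.5, 332.8 and 436.2 by night. Every day array lay below every night array, and the mean log2 value was 7.18 by day and 8.28 by night, a difference of -1.10 ± 0.30 (SE, n = 3 each, adjusted p = 0.759 by limma). In 3 other members the day arrays also lay wholly below the night arrays, MRPS22, MRPL57 and MRPL39, which with MRPS16 makes 4 of 41 (9.76%), against 5.28% of all genes. The opposite arrangement, day wholly above night, occurred in 0 of 41 members, against 5.61% of all genes. The difference was -0.33 ± 0.19 for MRPS22, -0.26 ± 0.17 for MRPL57 and -0.18 ± 0.17 for MRPL39 (SE, n = 3 each), and none of these 3 passed the unadjusted threshold by limma, although MRPL57 and MRPL39 did by the ordinary test. With arrays centred on their medians 3 members kept this separation, against 6.18% of all genes, and with quantile normalization 3 did, against 5.42%. With 1 array fewer, separation is easier by construction, and the counts can only stay or grow. They were 11 without 7 PM (26.8% of members, against 9.67% of all genes), 9 without 3 PM (22%, against 12%), 8 without 3 AM (19.5%, against 11.4%), and 5 or 6 without the other arrays (12.2% to 14.6%, against 9.14% to 10.5%).

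MRPL3 was next, with 134.5, 153.3 and 213.9 by day, against 166.9, 308 and 384.9 by night. The 3 PM value exceeded the 7 PM value, so the groups overlapped, and the difference was -0.72 ± 0.32 (SE, n = 3 each, adjusted p = 0.894 by limma). It passed the unadjusted threshold under quantile normalization (-0.73), under centring on the median (-0.75), without 3 PM (-0.91) and without 7 PM (-1.06). MRPS10 differed by -0.42 ± 0.27 (adjusted p = 0.923 by limma), and passed without 3 PM (-0.67).

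The members highest by day relative to night were MRPL18, MRPS35, MRPL20 and MRPL13. MRPL18, whose bacterial counterpart L18 binds the 5S RNA of the large subunit, had 2343.3, 2111.7 and 1623 by day, against 1825.6, 1914.9 and 1408.5 by night. Its 3 PM value lay below both evening values, and the difference was 0.24 ± 0.22 (SE, n = 3 each, adjusted p = 0.950 by limma). MRPS35 differed by 0.22 ± 0.22, MRPL20 by 0.14 ± 0.21 and MRPL13, with 789, 694.9 and 834.1 by day, against 543.7, 796.5 and 813.9 by night, by 0.12 ± 0.22. The sign for MRPL13 rested on the low 7 PM array and was -0.06 without it. With the day placed at 11 AM to 7 PM instead, MRPL18 differed by -0.0049 and MRPL13 by -0.23.

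That later split of the day parts the arrays closer to the fitted peaks and troughs of several members. At an unadjusted p under 0.05 it called 3 members lower at 11 AM to 7 PM than at 11 PM to 7 AM, against 2.09% of all genes: MRPS16 (log2 -0.98), MRPL35 (-1.79) and MRPS30 (-0.44), all by limma. It called 1 member higher, MRPS35 (0.46), against 3.32% of all genes. After adjustment it called 0 members by limma, as it did 0 of all genes.

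By subunit and origin the tilt was uneven, although no difference between these groups was tested. Of all genes tested, 50.9% were lower by day. All 8 tested small-subunit genes with a bacterial counterpart were lower by day, from -1.10 to as little as -0.02 (MRPS14), with a median of -0.18. So were 4 of 5 small-subunit genes without one, with a median of -0.17. All 8 tested large-subunit genes without a bacterial counterpart were lower by day, between -0.32 and -0.09, with a median of -0.20. Of the 20 large-subunit genes with a counterpart, 10 were lower and 10 higher, with a median of 0.00065. The large-subunit genes without a counterpart also resembled each other most of the 4 groups over the 6 arrays, with a median pairwise correlation of 0.49, against 0.02 in those with a counterpart and 0.07 over all 41 members. Pairs of all genes tested had a median of 0.004. These correlations share the same 6 arrays and animals, and the value of 0.49 ran from 0.36 to 0.68 when an array was left out.

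**Figure D4:**
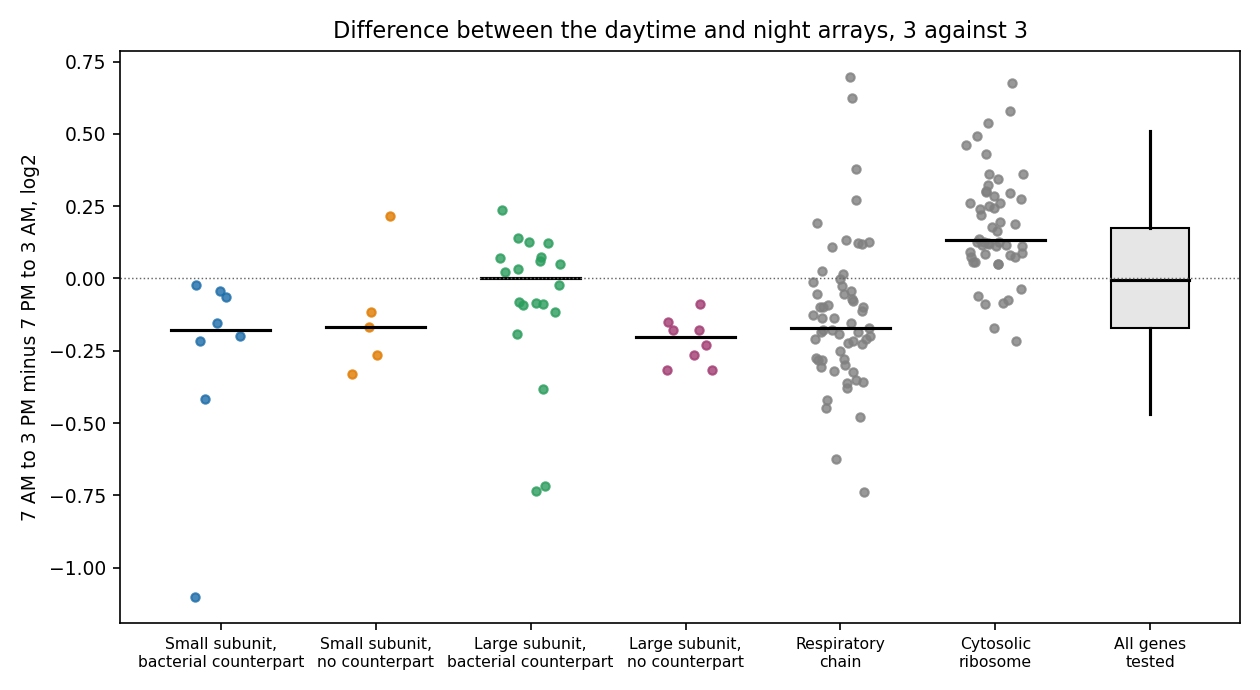
Difference in mean log2(intensity + 1) between the day arrays (7 AM, 11 AM and 3 PM) and the night arrays (7 PM, 11 PM and 3 AM), 3 against 3, with 1 point per tested gene and a black line at each median. The box for all 7164 genes spans the middle 50% with whiskers over the 5th to 95th percentiles. All 8 genes of the small subunit with a bacterial counterpart and all 8 of the large subunit without one lie below 0, the 20 of the large subunit with a counterpart run from -0.73 to 0.24 with 10 on each side of 0, and most of the 52 cytosolic ribosome genes lie above it.

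On single arrays, the members were highest at 11 PM. The median deviation from the gene means was 0.08 at 3 AM, 0.0021 at 7 AM, -0.08 at 11 AM, -0.05 at 3 PM, 0.04 at 7 PM and 0.17 at 11 PM on the log2 scale. With the stricter level filter, which leaves 27 members, the value at 3 AM was -0.07. At 11 PM 29 of 41 members lay above their own mean (70.7%, against 48.9% of all genes tested). There 16 had their highest value (39%), against 14.8% of all genes tested. Above their own means at 11 PM were also 46 of 59 respiratory chain genes and all 10 cortex markers, but only 22 of 52 cytosolic ribosome genes. At 11 AM 15 of 41 members lay above their own mean (36.6%, against 52.6% of all genes), and 1 had its highest value (2.44%, against 13.5%). The gap between the highest and lowest of the members' array medians was 0.25 and was 0.12 without the 11 PM array. Fitted peaks gathered in the same part of the clock: 14 of 41 fell between 0 and 4 h (34.1%, against 14.2% of all genes) and 2 between 8 and 12 h (4.88%, against 17%). These hours include those of members that the cosine fitted poorly. The median R2 was 0.28 in members, against 0.40 in all genes tested.

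**Figure D5:**
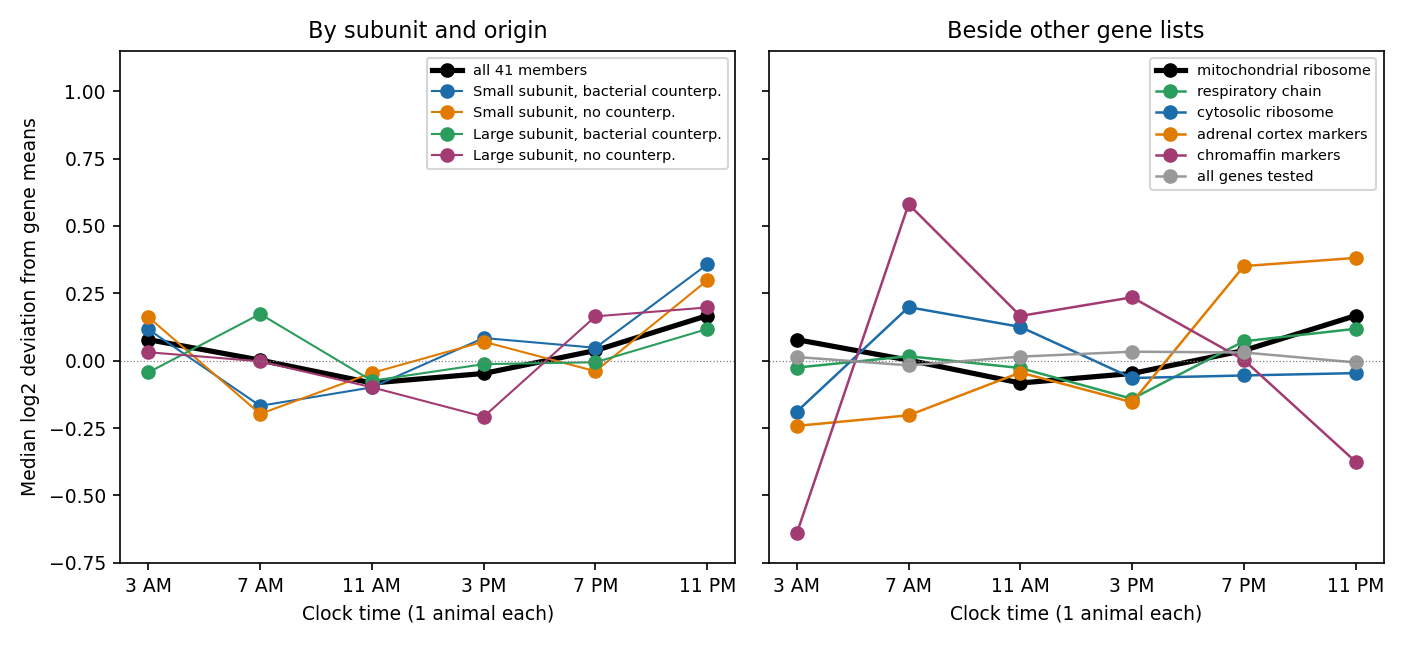
Median log2 deviation from gene means on each array, over tested genes, against clock time with 1 animal at each point. On the left the 41 mitochondrial ribosomal protein genes (black) span 0.25 from 11 AM to 11 PM, with all 4 subgroups above 0 at 11 PM, and on the right the medians of chromaffin and cortex markers span more than those of the respiratory chain and cytosolic ribosome genes plotted with them.

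Markers of adrenal cell types differed between the same arrays, and their part in the members' values was not tested. All 12 measured chromaffin markers were higher by day, with summed intensities of 23151.8 to 38232.1 by day, against 15138.3 to 22703.4 by night. Of 10 measured cortex markers 9 were lower by day, with sums of 70350.4 to 75227.4 by day, against 60371.2 to 94672.1 by night, and the 2 highest sums were at 7 PM and 11 PM. All 5 adipocyte markers were lower by day, with sums of 1287.4 to 2114.8 by day, against 1983.3 to 3716 by night. Of 6 fibroblast and capsule markers 5 were lower by day, with sums of 13279.2 to 15493 by day, against 14695.8 to 16481.7 by night. Smooth muscle markers stood apart at 11 PM, the array where the members were highest: all 5 had their lowest value there, with a median deviation of -1.39 and a sum of 2758.7, against 3538.1 to 7447.8 on the other arrays. The cortex sum was lowest at 3 AM.

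Other genes of mitochondrial translation gave few calls. Among translation factors, 0 of 7 tested passed an unadjusted p of 0.05 in the cosine fit, and the smallest p was that of OXA1L (adjusted p = 0.859 by limma, and past the unadjusted threshold without 11 AM), the inner-membrane insertase that receives newly made proteins from the mitochondrial ribosome. Among ribosome assembly factors 0 of 10 passed, with DDX28, a helicase of large-subunit assembly, at a fitted peak of 23.1 h (log2 0.59 ± 0.26, SE, 6 arrays, adjusted p = 0.849 by limma). Of 8 mitochondrial tRNA synthetases 1 passed, against 5.56% of all genes: WARS2, which charges the mitochondrial tryptophan tRNA. WARS2 had 179.5, 190.7, 292.9, 273.5, 415.8 and 334.6 from 3 AM to 11 PM, low in the 2 animals aged 12 years and highest at 7 PM. Its log2 peak-to-trough difference was 1.04 ± 0.33 (SE, 6 arrays, adjusted p = 0.836 by limma), and a straight line on age alone had an R2 of 0.874, against 0.746 for the cosine. Its call was lost when the array of 3 AM, of 7 AM, of 7 PM or of 11 PM was left out, where the log2 difference ran from 0.86 to 1.05.

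Of 6 tested genes of mitochondrial DNA expression 0 passed the cosine fit. POLRMT, the RNA polymerase of mitochondrial DNA, had 277, 86.9, 179.6, 259.2, 269.9 and 234.4, with a single low array at 7 AM (adjusted p = 0.836 by limma, and past the unadjusted threshold without 3 AM). Among the ribosomal proteins with other symbols, DAP3 and PTCD3 were tested and 0 passed. DAP3, a GTP-binding protein of the small subunit, had 157.2, 244.1, 199.2, 152.3, 219.4 and 365.6 from 3 AM to 11 PM, and was highest at 11 PM. Its log2 peak-to-trough difference was 0.56 with all arrays, 1.27 and past the unadjusted threshold without 3 AM, and 0.17 without 11 PM. Of 6 nuclear regulators 0 passed, with GABPB1, a subunit of the factor GABP that binds promoters of many mitochondrial genes, at a fitted peak of 12.2 h (adjusted p = 0.868 by limma).

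The respiratory chain, whose mitochondrially encoded subunits this ribosome makes, leaned the same way as the members. Of its 59 tested nuclear genes 47 were lower by day (79.7%, against 50.9% of all genes), with a median of -0.17. By limma 2 passed an unadjusted p of 0.05 as lower, COX5A (-0.74) and COX7A2 (-0.63), against 2.44% of all genes. Both were chosen after their values were seen and are subunits of cytochrome c oxidase. The cosine fit called 4 of the 59 at an unadjusted p under 0.05 (6.78%), against 5.56% of all genes (limma). The 2 with the smallest cosine p were higher by day, NDUFC1 (0.70, fitted peak at 14.6 h) and ATP5MC2 (0.62, 7.7 h). Genes of the cytosolic ribosome leaned the other way, with 7 of 52 lower by day (13.5%, against 50.9% of all genes) and a median of 0.13. Past the unadjusted threshold as higher were 3 genes (RPL39, RPL34 and RPS12, also named after their values were seen), against 2.95% of all genes. The 52 were taken by symbol and include RPL26L1 (-0.08) and RPS4Y1 (0.34), a Y-linked symbol although the animals were female. By limma 0 genes of either list passed once p-values were adjusted over all 7164 genes. The difference between the mitochondrial and cytosolic ribosome genes was not tested.

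The 10 members below the level filter were MRPS28, MRPL19, MRPL44, MRPS18C, MRPS15, MRPS12, MRPL58, MRPS27, MRPL52 and MRPL41, with single intensities between 10.7 and 224.5. In a fit over all 11963 genes 0 of these 10 passed an unadjusted p of 0.05 in either comparison (limma), and MRPS28 came nearest, with an adjusted p of 0.914. That fit called 1 of 51 members by the cosine, against 5.19% of all genes, 1 as lower by day, against 2.03%, and 0 as higher by day, against 3.03%, and in each case the 1 was MRPS16. MRPS28 had 70.2, 124.6, 18.3, 24.1, 88.5 and 118.5 from 3 AM to 11 PM, low at 11 AM and 3 PM. MRPL19, counterpart of bacterial L19 at the face between the subunits, had 136.9, 91.1, 59.8, 97.1, 86.4 and 140.5, low at 11 AM and high at 11 PM and 3 AM. MRPS15 instead had its high arrays at 11 AM, 3 PM and 11 PM, with 10.7, 11.4, 48.2, 65.2, 14.8 and 44.6. MRPL58, a peptidyl-tRNA hydrolase that frees stalled ribosomes, was highest at 11 AM with 122.5, against 52.6 to 80.2 on the other arrays. MRPS12, whose bacterial counterpart S12 takes part in decoding, was lowest at 11 PM with 67.4, against 118.6 to 144.4 on the others. All 10 were singled out after their values were seen. With these included, 35 of all 51 members were lower by day (68.6%, against 50% of all genes). Among them were 10 of 12 small-subunit genes with a bacterial counterpart and 9 of 12 large-subunit genes without one.

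The 3 paralogs of bacterial S18 did not share a course. MRPS18B had 640.9, 523.4, 639.5, 479.6, 495.4 and 766.4 from 3 AM to 11 PM, highest at 11 PM like MRPS18A, while MRPS18C, below the level filter, had 42.2, 30.7, 63, 52.7, 58.6 and 43.9, highest at 11 AM. MRPL46 and MRPS11, which neighbour each other in the macaque RefSeq annotation (assembly T2T-MMU8v2.0) and were the 1 such pair among the members, had a correlation of 0.217 over the 6 arrays. MRPL46, chosen after its values were seen, had 917.3, 862, 865.6, 537.5, 1049.6 and 670.5, lowest at 3 PM and highest at 7 PM.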

How the data were processed

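Values are the authors' deposited intensities, linear and already scaled to a common trimmed mean, as the values show, with 1 value for each probe set on an array. The labels used here do not name the method that summarised probes, and signal over background was not at hand. Gene names come from the platform annotation. Intensities were converted to log2(value + 1), so fold changes of dim genes are understated. Genes whose mean fell short of the median over non-control probe sets were not tested. Both fits used limma 3.58.1 in R 4.3.3 on all 7164 genes, with Benjamini-Hochberg adjustment. The 24 h cosine leaves 3 residual degrees of freedom and the comparison of 3 day with 3 night arrays leaves 4. The p-values rest on how far single animals depart from the curve, or from the mean of their group of 3. With 1 animal at each clock time, that spread mixes animal, age and change with clock time. The number of arrays limits the precision. The fits were also run on simulated data with independent noise for each gene. Those data held no effect of animal or age, so they cannot check that limit of the design.

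Members and lists were chosen with earlier results of these data known. The named genes are the 10 members with the smallest cosine p, the 4 with the smallest p in each direction between day and night, the 2 with the largest and the 2 with the smallest range, the smallest cosine p in each subunit group and in each list of mitochondrial translation genes, and MRPS30, MRPS18A and MRPS36 (not analysed here). Alternatives covered the level filter, normalization, pseudocount, probe set, limma's prior, age as a covariate, the split of the day and each array left out.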

Additional observations from a re-analysis of the deposited data

How the results depend on the processing

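The count of members past an unadjusted p of 0.05 in the cosine fit (1 with all settings as reported) was 0 with the stricter level filter, which leaves 27 members and drops MRPS16 (6.41% of all genes were called there), 5 with the ordinary F test, 3 with age as a covariate (MRPS16, MRPS11 and MRPL23, 7.32% of members, against 5.95% of all genes), and 1 to 4 without single arrays, 2 without 3 AM (4.88%, against 7.48%) and 4 without 3 PM (9.76%, against 5.21%) or 7 PM (9.76%, against 5.05%). In the age-adjusted fit MRPS11 had a log2 difference of 10.6, beyond its observed range of 2.74, and MRPL23 had 3.52, beyond its range of 0.93. The count lower by day (1) was 0 with the stricter filter (3.23% of all genes), 2 with quantile normalization (4.88% of members, against 2.53% of all genes) or centring on the median (4.88%, against 2.95%), 3 with the ordinary test (7.32%, against 2.48%), 3 with the later split of the day (7.32%, against 2.09%) and 1 to 3 without single arrays, 2 without 7 AM (against 2.25%) and 3 without 3 PM (against 3.2%) or 7 PM (against 2.18%), and the count higher by day (0) was 1 with that split. Over all genes, the adjusted cosine count (0) was 1 with the stricter filter, and the adjusted day count (0) ran from 0 to 1 without single arrays, 1 without 11 PM. The span of the members' array medians (0.25) was 0.36 with centring and 0.12 to 0.28 without single arrays. With age as a covariate the fitted peak moved by over 6 h for MRPL28 (log2 2.57), MRPL49 (0.63), WARS2 (1.06) and MRPS18A (1.89). The values of MRPL28, MRPL49 and MRPS18A likewise lay beyond their observed ranges of 1.36, 0.37 and 0.85. The fitted peak also moved so for MRPL24, whose value without single arrays ran from 0.59 to 2.44, and for DAP3, from 0.17 to 1.27. The day difference of MRPL13 turned to -0.23 with the later split and ran from -0.063 (without 7 PM) to 0.23 without single arrays, and that of MRPL18 was -0.0049 with the split. Beyond fewer genes or arrays in a fit, the cause was not tested. Of the alternatives for named genes, 379 kept direction and side of the unadjusted threshold, 18 gained it, 8 lost it (all WARS2) and 9 reversed. No paired analysis was possible because the groups hold a single animal each.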
